A study of Sus scrofa with 48 samples.

Results

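The genes described here are the enzymes that build heme and the mitochondrial carriers that bring in iron and glycine for it: ALAS2, ALAD, UROS, UROD, CPOX, PPOX, FECH, SLC25A37 and SLC25A38. They were chosen by name, with earlier results of these data known, and a spot of the array was taken as a member when the scanner file gave it one of these names and the authors had kept it in their table. Of the 9 genes, 8 had at least 1 such spot, with 16 spots among the 37113 retained, and no member spot had been left out. FECH, the ferrochelatase that inserts iron into the ring, had no spot of that name and was not analysed here. Genes with a usable name numbered 8344 in all.

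Whole blood was taken at slaughter, at 132 days of age, from 48 castrated male French Large White pigs, and 1 single-colour array was hybridised per pig. The pigs belonged to lines selected in opposite directions for residual feed intake (RFI), the difference between the feed an animal eats and the feed predicted for its growth. Low RFI pigs eat less than predicted and high RFI pigs eat more. Within each line, 12 pigs received a diet rich in fat and fibre (HF), in which straw and plant oils replaced part of the cereals, and 12 received a diet low in both (LF). The groups were thus low RFI HF, low RFI LF, high RFI HF and high RFI LF. The samples were unsorted blood, and no red cell fraction was isolated.

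Heme is an iron-containing ring made in a chain of steps that begins and ends in the mitochondrion and passes through the cytosol in between. ALAS2 is the erythroid form of the enzyme that starts the chain from glycine and succinyl-CoA, ALAD joins its product into a pyrrole, UROS closes the ring, UROD and CPOX trim the side chains, PPOX oxidises the ring, and FECH adds iron. SLC25A37 (mitoferrin 1) carries iron into the mitochondrion and SLC25A38 carries glycine. In mammalian blood the bulk of heme goes into hemoglobin, and the young red cells that still hold RNA, the reticulocytes, are the cells in which these transcripts are best known.

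Probe sequences are shown for the genes that lead the results and for those whose values turn on which spot is read. Neither the files nor the sources used here place the probes on a genome build, a strand or an exon, so that no coordinates are given. The letters of the ALAS2 spot look like the strand opposite to the coding strand, unlike those of the other members, and the UROD spot may begin in an intron. No transcript was at hand to check either point, so it is uncertain whether the ALAS2 and UROD values below read the messenger RNA of these genes. ALAS2, ALAD and UROD each had 1 spot, of 60 bases. Those of ALAS2 and ALAD are shown, as the start of the chain and the enzyme closest to it over the pigs, read 5′ to 3′ as the scanner files list them:

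ALAS2: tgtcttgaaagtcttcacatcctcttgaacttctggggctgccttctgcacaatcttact

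ALAD: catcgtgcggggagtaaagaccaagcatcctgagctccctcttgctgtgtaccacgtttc

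UROS had 5 spots but 3 sequences, because A_72_P330863 and A_72_P659478 are the same oligo spotted under separate names, and so are A_72_P393553 and A_72_P490689. These pairs give the noise between spots of the same array. The sequences were:

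UROS O10583: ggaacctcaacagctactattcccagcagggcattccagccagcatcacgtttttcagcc

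UROS A_72_P330863: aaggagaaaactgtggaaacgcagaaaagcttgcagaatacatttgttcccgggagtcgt

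UROS A_72_P393553: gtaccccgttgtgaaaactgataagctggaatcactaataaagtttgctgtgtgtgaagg

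CPOX had 2 spots, of which the first is given whole and the second over its first 30 bases. They are shown because their levels did not follow each other over the pigs:

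CPOX O6684: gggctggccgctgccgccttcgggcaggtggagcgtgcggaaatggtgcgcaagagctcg

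CPOX A_72_P241927: attctagggctagaaaatgtatgaattctt

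PPOX had 4 spots. A_72_P227067 and A_72_P554326 overlap over 44 bases with 41 matches and 3 mismatches, and the 30 bases that hold the mismatches are shown with the differing bases in capitals:

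PPOX A_72_P227067: ttcctggTtacagacactaAaagccaAaag

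PPOX A_72_P554326: ttcctggGtacagacactaGaagccaGaag

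Counted from 1 at the start of this window, the substitutions from A_72_P227067 to A_72_P554326 are T8G, A20G and A27G. SLC25A37 and SLC25A38 had 1 spot each. The SLC25A38 spot shares 58 bases with a further retained spot, A_72_P163571, which the files name only by a clone, and which is used below as a repeat reading of the same sequence.

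The arrays lay on 6 slides of 8, with 2 pigs of each group per slide, and were scanned on 3 days. The median signal of an array was 5.91 to 15.97 times its local background. All 16 member spots were called well above background on all 48 arrays and none was saturated. Levels are given on the log2 scale relative to the median of the retained spots of the same array, so that a level of 0 is the median spot of the array. The array of high RFI HF replicate 1 was rebuilt from its scanner file, because its column in the deposited table repeats a single value in 37090 of its entries. Levels of different genes come from different oligos and are not set against each other. As nothing says whether the pigs were related, P-values measure the spread between these animals.

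No member was differentially expressed (DE) between low and high RFI pigs. By limma's moderated test with Benjamini-Hochberg (BH) adjustment over all 8344 genes, 0 of 8 members passed an adjusted P-value of 0.05, beside 278 of all genes, 3.33%. None of the 8 passed the criterion of the study's methods either, a P-value under 0.01 with a fold change (FC) above 1.1, which 6.16% of genes passed, and none had an unadjusted P-value under 0.05, compared with 13% of genes. The analysis of variance of each gene gave the same 3 counts of 0. The median difference of the members, low minus high RFI, was 0.06 on the log2 scale, compared with 0.03 over all genes, and 6 of 8 differences were above 0, as were 63.9% of all genes. In whole blood, fewer cells of a type and less RNA per cell cannot be told apart in any of these levels.

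ALAS2, which sets the pace of the chain in red cells, ranged from 0.90 to 3.12 in low RFI pigs (median 2.04) and from 0.81 to 2.75 in high RFI pigs (median 1.97). The lines overlapped over almost their whole range. The difference of the means, 2.06 ± 0.55 against 1.93 ± 0.51 (SD, n = 24 each), was 0.13 with a 95% interval of -0.17 to 0.43 (limma adjusted P = 0.86), an interval that runs from a ratio of 0.89 to a ratio of 1.34.

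ALAD, the lead-sensitive enzyme of the cytosolic part, lay between 3.48 and 5.92 in low RFI pigs (median 4.65) and between 3.28 and 5.54 in high RFI pigs (median 4.53). Its difference of 0.21 had an interval of -0.15 to 0.58 (limma adjusted P = 0.76), and 13 of 24 low RFI pigs were above the median of the high RFI line. UROD, which decarboxylates the side chains, ran from 0.43 to 3.40 in low RFI pigs (median 1.88) and from -0.04 to 3.36 in high RFI pigs (median 1.90). The difference in UROD was 0.09 (interval -0.38 to 0.56, limma adjusted P = 0.96), and 12 of 24 low RFI pigs were above the high RFI median.

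UROS, which closes the ring, had the lowest difference of the 8. Its level was 3.26 to 4.73 in low RFI pigs (median 3.94) and 2.95 to 4.75 in high RFI pigs (median 4.19). The difference was -0.19 (interval -0.45 to 0.06, limma adjusted P = 0.62), and 17 of 24 low RFI pigs were below the high RFI median. On 5 of the 6 slides the low RFI mean was the lower, with slide differences from -0.43 to 0.01.

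CPOX and PPOX, the oxidases of the last mitochondrial steps before iron is added, had narrow bounds as means over their spots. CPOX lay between 0.69 and 1.41 in low RFI pigs (median 1.09) and between 0.62 and 1.58 in high RFI pigs (median 1.09). Its difference was 0.01 with an interval of -0.10 to 0.13 (limma adjusted P = 0.97). PPOX ranged from -0.09 to 0.88 in low RFI pigs (median 0.35) and from -0.04 to 0.91 in high RFI pigs (median 0.43), a difference of -0.04 (interval -0.20 to 0.12, limma adjusted P = 0.94). As ratios these intervals run from 0.930 to 1.096 for CPOX and from 0.873 to 1.090 for PPOX. Single spots were less tightly bound, with an interval of -0.31 to 0.42 for PPOX A_72_P657702 and of -0.10 to 0.22 for CPOX A_72_P241927.

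Of the carriers, SLC25A38 lay between 2.72 and 3.44 in low RFI pigs and between 2.69 and 3.48 in high RFI pigs, with a median of 3.13 in both. The difference was 0.04 (interval -0.07 to 0.14, limma adjusted P = 0.91). The overlapping spot A_72_P163571 gave 0.01 (interval -0.11 to 0.13). SLC25A37 had the lowest P-value of the members for line. Its level was 1.93 to 5.16 in low RFI pigs (median 2.30) and 1.78 to 3.08 in high RFI pigs (median 2.13), and 17 of 24 low RFI pigs were above the high RFI median. The difference of 0.24 (interval -0.05 to 0.52, limma adjusted P = 0.56) rests in large part on 1 pig, low RFI LF replicate 8, whose level of 5.16 is followed by 3.20 in the next pig. Without that pig the difference was 0.12 (adjusted P = 0.68).

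**Figure D1:**
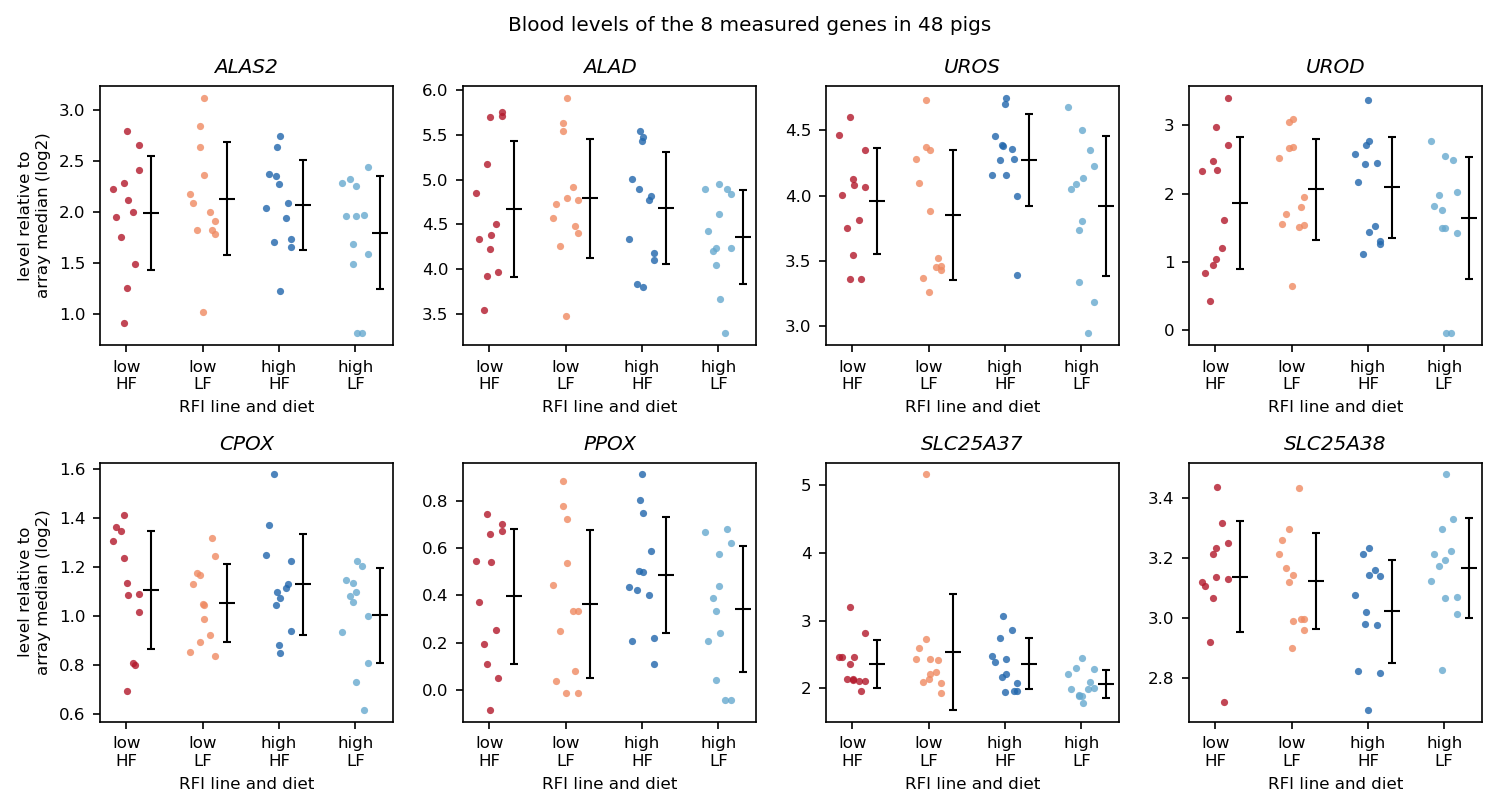
Level of each measured gene relative to the array median (log2) in every pig, by RFI line and diet, with 12 pigs per group. Points are pigs, and black bars are the group mean and SD. The groups overlap in all 8 genes, and 1 low RFI LF pig stands at 5.16 for SLC25A37.

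Diet left the members without a call as well. Between the HF and LF diets 0 of 8 members passed the adjusted threshold in limma, beside 0% of all genes, 0 of 8 had an unadjusted P-value under 0.05, compared with 1.93% of genes, and the analysis of variance also gave 0 for both. The median difference, HF minus LF, was 0.09 over the members and 0.01 over all genes, and 7 of 8 members were above 0 compared with 57.4% of genes. UROS was 3.36 to 4.75 under HF (median 4.15) and 2.95 to 4.73 under LF (median 3.97). Its difference of 0.23 had an interval of -0.03 to 0.49 (limma adjusted P = 0.9997), and 18 of 24 HF pigs were above the LF median. The other 7 members differed by -0.06 (SLC25A38) to 0.12 (UROD). For ALAS2 the difference was 0.06 with an interval of -0.24 to 0.36.

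The line by diet interaction, the line difference under HF minus the line difference under LF, was below 0 for 7 of 8 members and for 50.6% of all genes. Its median was -0.33 over the members and -0.002 over all genes. No member passed the adjusted threshold in limma, beside 0% of genes, no member had an unadjusted P-value under 0.05, compared with 2.23% of genes, and the analysis of variance gave 0 for both. Since 5 of the members rise and fall together from pig to pig, as described below, the 7 signs do not count as 7 separate observations.

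The group mean was lowest in high RFI LF for ALAS2, ALAD, UROD, CPOX, PPOX and SLC25A37, but not for UROS or SLC25A38. In ALAS2 the group means were 1.99 ± 0.56 in low RFI HF, 2.13 ± 0.56 in low RFI LF, 2.06 ± 0.44 in high RFI HF and 1.80 ± 0.55 in high RFI LF (SD, n = 12 each). The interaction was -0.41 (interval -1.01 to 0.19, limma adjusted P = 0.88). UROD had group means of 1.86 ± 0.97, 2.06 ± 0.74, 2.09 ± 0.74 and 1.64 ± 0.90 in the same order, and an interaction of -0.65 (interval -1.59 to 0.29, adjusted P = 0.88). ALAD had an interaction of -0.45 (interval -1.17 to 0.28, adjusted P = 0.88). On 4 of 6 slides the interaction in ALAS2 was below 0, with slide values from -1.52 to 0.46.

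Within the LF diet SLC25A37 alone had an unadjusted P-value under 0.05 for line, as did 7.67% of all genes. Its level was 1.93 to 5.16 in low RFI LF (median 2.33) and 1.78 to 2.46 in high RFI LF (median 2.001). The difference was 0.47 (interval 0.07 to 0.88) with a limma adjusted P-value of 0.48, and without low RFI LF replicate 8 it was 0.24 (adjusted P = 0.77). No member passed the adjusted threshold for line within a diet, where 0.312% of genes passed under LF and 1.04% under HF, or for diet within a line. Within high RFI pigs, SLC25A38 differed by -0.14 (interval -0.29 to 0.00005, limma P = 0.050, adjusted P = 0.85) and UROS by 0.35 (interval -0.01 to 0.71, limma P = 0.056, adjusted P = 0.85) between HF and LF.

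**Figure D2:**
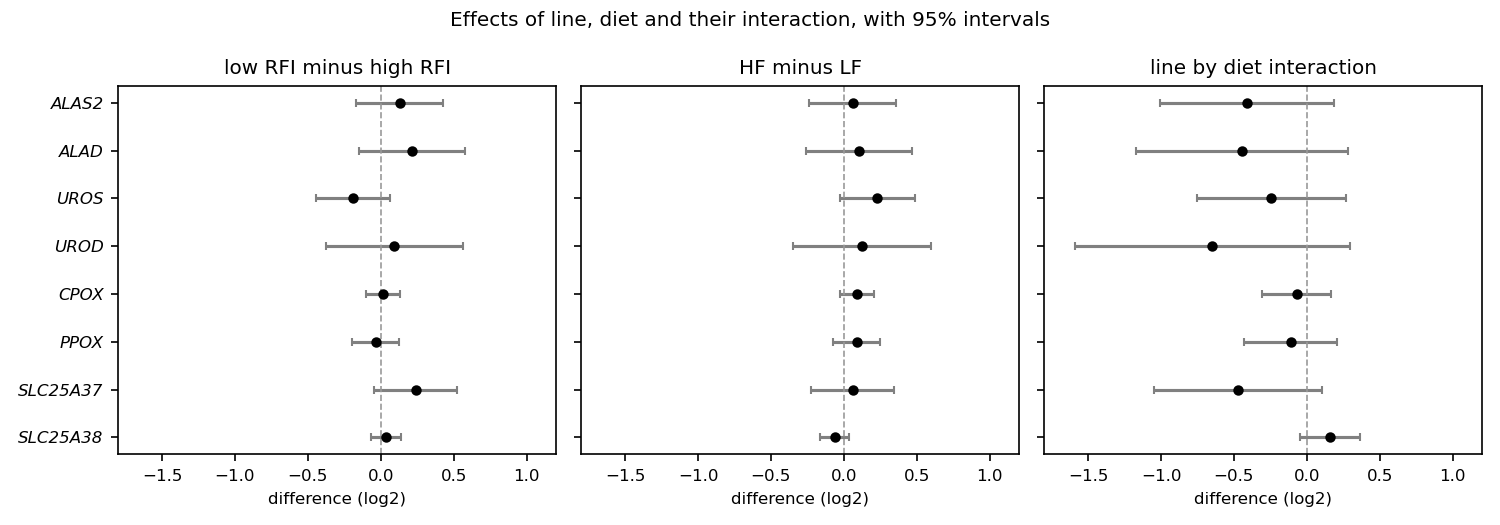
Difference on the log2 scale (points) with its 95% interval from the limma fit for line, diet and their interaction, for the 8 members. All member intervals in these 3 panels include 0, and the interaction lies below 0 for 7 of 8 members.

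The line difference of UROS varied between its oligos. The repeated oligo A_72_P330863 and A_72_P659478 gave line differences of -0.33 and -0.34 (intervals -0.60 to -0.06 and -0.62 to -0.06, limma P = 0.019 for each, adjusted P = 0.24 over all 37113 spots). The other repeated oligo, A_72_P393553 and A_72_P490689, gave -0.08 on both, and O10583 gave -0.14. These were 2 of 16 member spots with an unadjusted P-value under 0.05 for line, compared with 12% of all spots, and 0 of 16 passed the adjusted threshold, which 2.77% of spots passed. Whether the oligos differ from each other in their line effect was not tested.

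The repeated oligos give the noise of a spot within an array. Over 48 pigs the paired readings had an r of 0.97 for A_72_P393553 with A_72_P490689 and 0.96 for A_72_P330863 with A_72_P659478, and the SD of a single spot worked out from their difference was 0.08 and 0.11. Extraction, labelling, hybridisation and scan are common to both copies, and their error is not in these values. The SD over pigs of the same spots was 0.44 to 0.53. Different UROS oligos also followed each other, at an r of 0.82 to 0.93.

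PPOX and CPOX were less uniform. The PPOX spots O14542 and A_72_P227067 had an r of 0.90 with each other, and A_72_P554326 an r of 0.79 with either, but A_72_P657702 reached 0.36 to 0.54 with the other 3. A_72_P657702 also spread more widely over pigs, with an SD of 0.63 beside 0.22 to 0.25, so that it weighs most in the gene mean. The 2 CPOX spots O6684 and A_72_P241927 had an r of -0.17 (rho -0.10), so that their mean is not a reading that both spots share. A_72_P241927 correlated at -0.42 with ALAS2 and O6684 at 0.16. The SLC25A38 spot and the overlapping A_72_P163571 had an r of 0.88.

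**Figure D3:**
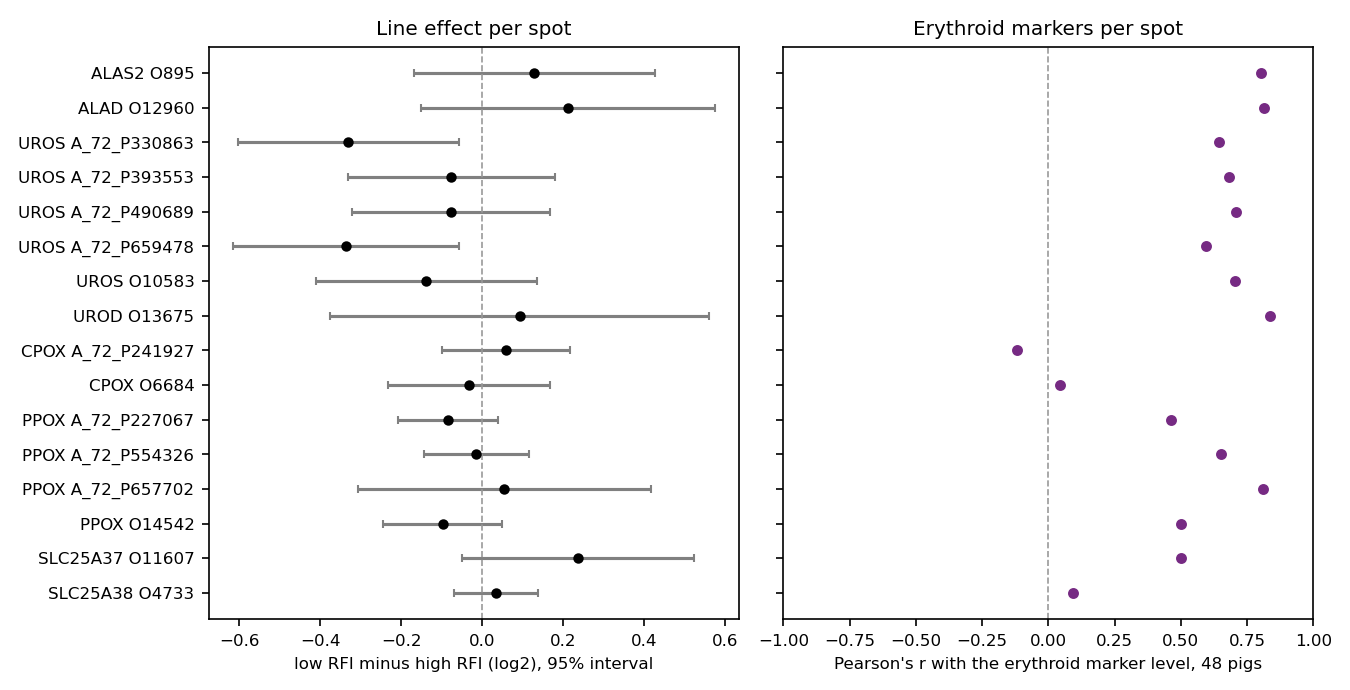
Left, difference between low and high RFI pigs (log2) with its 95% interval for each of the 16 member spots. Right, Pearson's r of each spot with the erythroid marker level over 48 pigs. The UROS oligo spotted as A_72_P330863 and A_72_P659478 lies below 0 at -0.33 and -0.34, and the CPOX spots are at -0.12 and 0.04 on the right.

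The members varied far more between pigs than between groups. The SD over 48 pigs was 0.83 for UROD, which 98.8% of all genes stay below, 0.65 for ALAD, 0.53 for ALAS2, 0.52 for SLC25A37 and 0.47 for UROS, compared with a median of 0.24 over all genes. Without low RFI LF replicate 8 the SD of SLC25A37 was 0.32. PPOX (0.28), CPOX (0.20) and SLC25A38 (0.17) were close to that median or under it. The CPOX value is that of the mean of its spots, and singly they had an SD of 0.34 (O6684) and 0.28 (A_72_P241927). From the lowest to the highest pig UROD spanned 10.9-fold, ALAD 6.20-fold, ALAS2 4.98-fold and SLC25A38 1.72-fold. The 4 groups accounted for 4.09% (PPOX) to 12.2% (UROS) of the sum of squares of a member, and the slides for 2.41% (UROD) to 28.1% (SLC25A38).

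ALAS2, ALAD, UROS, UROD and PPOX rose and fell together from pig to pig, as did a large share of all genes. Among the 28 pairs of measured members, 12 had a BH adjusted P-value under 0.05 for Pearson's r in a permutation test with 100000 permutations, and 10 of these are the pairs within these 5 enzymes. The smallest r of the 12 was 0.33, a size that 43% of all pairs of the 8344 genes reached in either direction, so that 12 of 28 is no more than the background. The r of the 10 pairs ran from 0.59 to 0.88 and Spearman's rho from 0.59 to 0.88, all with an adjusted P-value of 2.8e-05 for r, beside 12.7% of all gene pairs with an r at least as far from 0 as the lowest of the 10. The adjusted values come from P-values of 1e-05, the smallest these permutations can give. In all 4 groups taken alone each of these 10 pairs stayed above 0, with r from 0.50 to 0.95, and within the single slides r ran from 0.47 to 0.98. With the slide means taken off, r was 0.67 to 0.93.

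ALAS2 with ALAD had an r of 0.88 (rho 0.88), which was 0.86 without the 2 pigs farthest from the median of ALAS2. ALAD with UROD had an r of 0.87 (rho 0.86), and 0.85 without the 2 pigs farthest from the median of ALAD. ALAS2 with UROD had an r of 0.83 (rho 0.83), and 0.77 without the 2 farthest pigs. UROS was closest to PPOX, at an r of 0.79 (rho 0.77), and 0.76 without the 2 farthest pigs. The weakest of the 10 was ALAD with UROS, at an r of 0.59 (rho 0.61).

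CPOX and SLC25A38 had no pair that passed. The 7 pairs with CPOX had r from -0.22 to 0.22 and the 7 pairs with SLC25A38 from -0.08 to 0.18, and none had an adjusted P-value under 0.05. When the brightest spot stood for each gene, 4 of the 7 CPOX pairs passed, with ALAS2, ALAD, UROD and PPOX at r from -0.44 to -0.39, and with normexp and quantile normalisation UROS with SLC25A38 passed at an r of 0.33. Whether these r differ from those of the 5 enzymes was not tested. SLC25A37 was in between, with r of 0.25 to 0.36 and rho of 0.21 to 0.45 against the 5 enzymes. Of those, PPOX (adjusted P = 0.015) and ALAD (adjusted P = 0.043) passed for r in the permutation test. Without low RFI LF replicate 8 neither passed, at an r of 0.27 and 0.28.

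**Figure D4:**
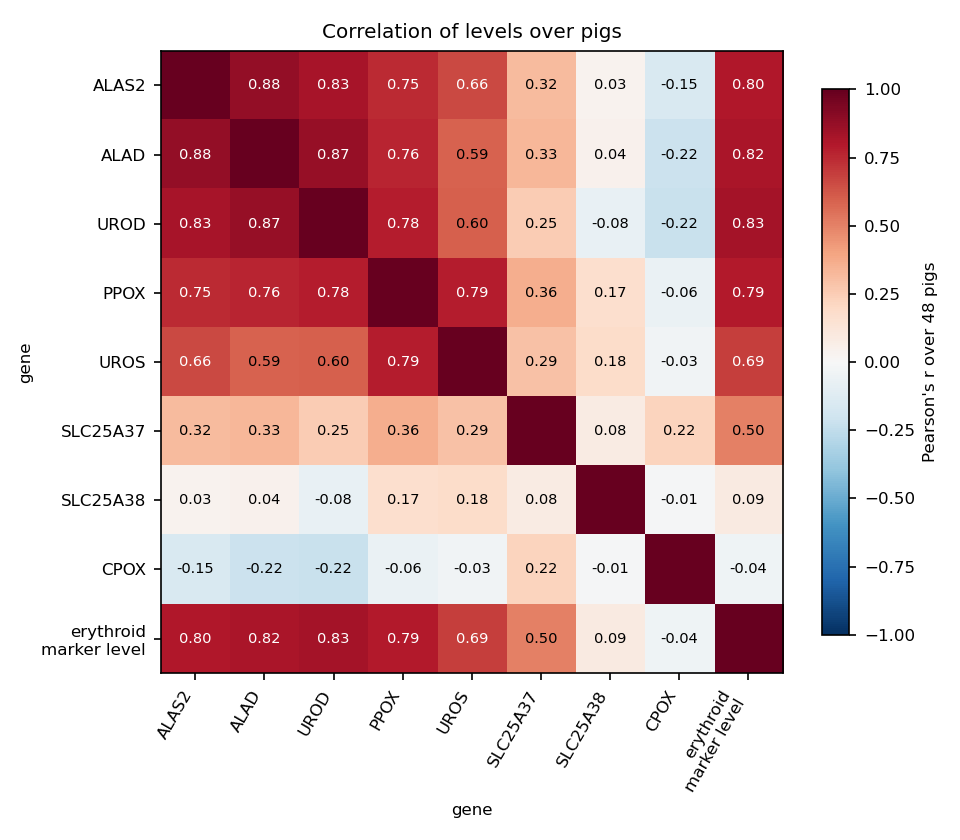
Pearson's r over 48 pigs between the levels of the 8 measured members, and of each with the erythroid marker level (mean standardised level of 20 red cell genes). The block of ALAS2, ALAD, UROD, PPOX and UROS holds r from 0.59 to 0.88, and the CPOX row and column lie between -0.22 and 0.22 against the other members.

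The same 5 enzymes also followed the mean level of genes that mark red cells and their precursors. Of 43 erythroid genes listed, 20 were measured, among them HBB (beta globin), AHSP (the chaperone of alpha globin), SLC4A1 (the band 3 anion exchanger), EPB42, ANK1 and SPTB (membrane skeleton), CA1 and CA2 (carbonic anhydrases) and KLF1 and GATA1 (transcription factors). Their standardised levels were averaged per pig. Taken singly, 18 of the 20 had an r above 0 with all 5 enzymes. The exceptions were NFE2, at -0.07 with ALAS2 and -0.21 with UROD, and SELENBP1, at -0.22 and -0.13, and EPOR had an r of 0.14 with ALAS2. The correlation with this erythroid marker level was tested for the 8 members, and 6 of the 8 had a P-value under 0.05 in the permutation test after BH adjustment over all genes. Of the 8324 genes outside the marker list 68.1% did so too, so that the count says little about the members. An r of at least 0.5 was reached by 23.7% of those genes, and one as high as that of ALAS2 by 3.24%.

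UROD had an r of 0.83 with the erythroid marker level (rho 0.82), ALAD 0.82 (rho 0.78), ALAS2 0.80 (rho 0.83) and PPOX 0.79 (rho 0.81), each at an adjusted P-value of 3.9e-05 for r. The PPOX value leans on the spot A_72_P657702, at 0.81, while the other 3 spots had an r of 0.46, 0.50 and 0.65, and with ALAS2 that spot had 0.78 and the others 0.38 to 0.59. Without the 2 pigs farthest from the median marker level the gene values were 0.79 for UROD, 0.78 for ALAD, 0.75 for ALAS2 and 0.80 for PPOX. UROS had an r of 0.69 (rho 0.69, adjusted P = 3.9e-05). SLC25A37 had an r of 0.50 (rho 0.58, adjusted P = 0.00033), and 0.48 without the 2 farthest pigs. With the group means taken off first, the r of ALAS2 was 0.80, of UROD 0.83 and of SLC25A37 0.47, and with the slide means taken off 0.83, 0.85 and 0.50. Within single slides of 8 pigs r ran from 0.51 to 0.98 for ALAS2, from 0.52 to 0.98 for UROD and from -0.47 to 0.83 for SLC25A37.

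SLC25A38 (r = 0.09, rho 0.11, adjusted P = 0.59) and CPOX (r = -0.04, rho -0.07, adjusted P = 0.80) had no adjusted P-value under 0.05 with the erythroid marker level, and without the 2 farthest pigs their r was 0.27 and 0.03. In the plot of levels against that marker level 1 pig, low RFI HF replicate 8, sits well below the others for ALAS2 and UROD at a marker level of 0.35. The pig with the outlying SLC25A37, low RFI LF replicate 8, had a marker level of 0.87, which 4 pigs exceeded, and in PPOX it was second from the top of 48.

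**Figure D5:**
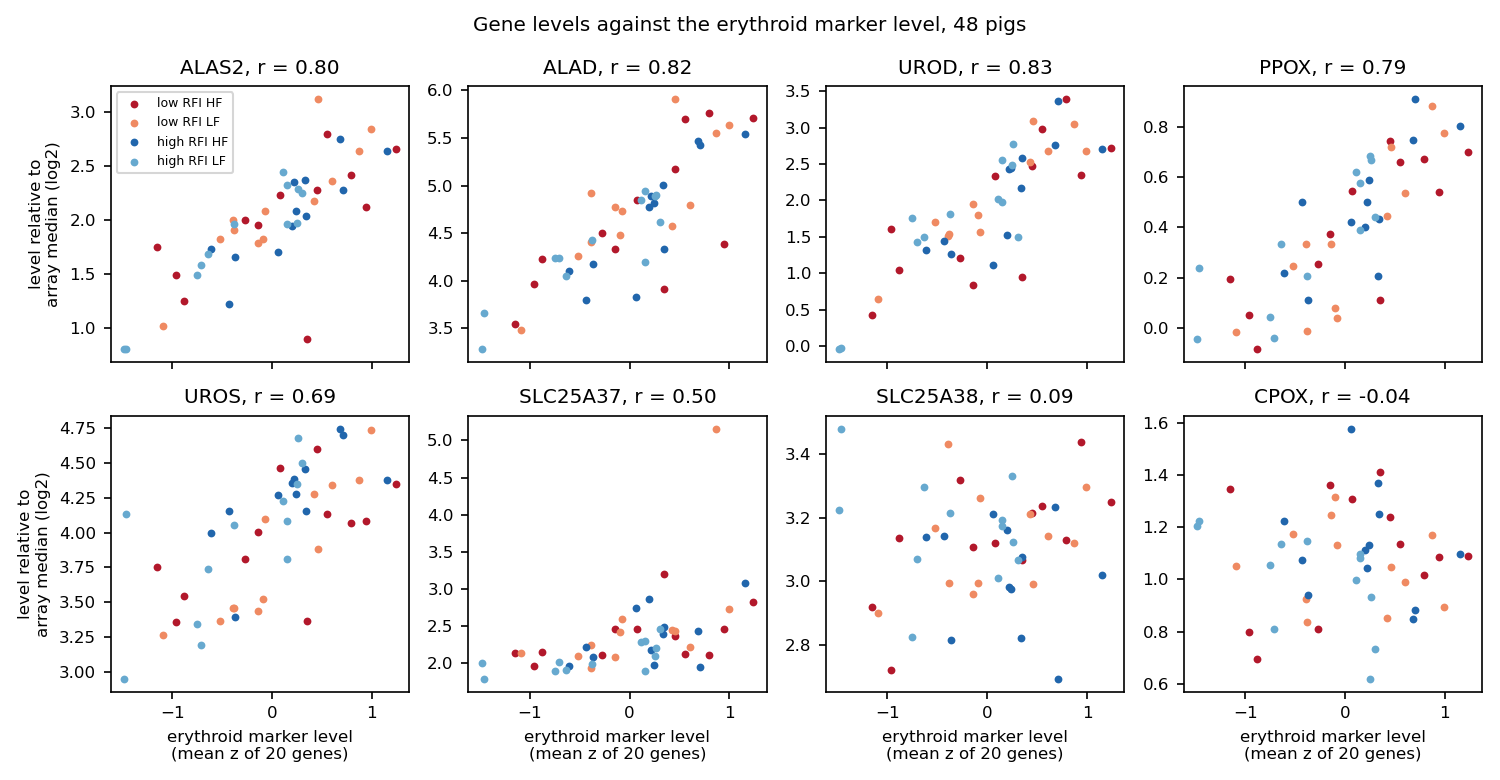
Level of each member relative to the array median (log2) against the erythroid marker level (mean z of 20 red cell genes) in 48 pigs, coloured by line and diet. ALAS2, ALAD, UROD and PPOX rise with the marker level at an r of 0.79 to 0.83, and for CPOX and SLC25A38 r is -0.04 and 0.09.

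The erythroid marker level itself overlapped between the groups. It ran from -1.15 to 1.24 in low RFI HF (median 0.21), from -1.09 to 0.99 in low RFI LF (median -0.08), from -0.61 to 1.15 in high RFI HF (median 0.23) and from -1.48 to 0.31 in high RFI LF (median -0.13). The group means of this level were 0.08, 0.05, 0.21 and -0.35 in the same order. Of the 20 markers 1 was DE between lines, beside 3.33% of all genes. It was SLC4A1, at 1.06 ± 0.29 in low RFI and 0.80 ± 0.27 in high RFI pigs (limma difference 0.26 ± 0.07 SE, adjusted P = 0.039, 19 of 24 low RFI pigs above the high RFI median). The line by diet interaction was below 0 for 17 of 20 markers, beside 50.6% of all genes, with a median of -0.25, and none passed the adjusted threshold. It was below 0 for 10 of 10 neutrophil markers as well, with a median of -0.38 and none past the threshold. For diet, HF minus LF, 18 of 20 erythroid markers were above 0, beside 57.4% of all genes, with a median of 0.18 beside 0.01. Of the 20, 4 had an unadjusted P-value under 0.05, beside 1.93% of genes, and 0 passed in limma. Among the 10 neutrophil markers 7 were above 0 for diet, with a median of 0.27. An unadjusted limma P-value under 0.05 was found for 2 of these 10, and 0 passed. The part of the red cell content in the member values was not tested.

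PTPRC and the T cell markers ran opposite to the 5 enzymes, and the neutrophil markers had little relation to ALAS2. PTPRC (CD45), carried by all white blood cells, had an r of -0.82 with ALAS2, -0.76 with ALAD, -0.73 with UROD and -0.71 with PPOX over 48 pigs, but 0.23 with CPOX and -0.07 with SLC25A38. The averaged level of 12 T cell markers had an r of -0.65 with ALAS2 and 0.28 with CPOX, and that of 10 neutrophil markers an r of 0.39 with CPOX and -0.04 with ALAS2. All these levels are relative to the median of the same array. Before the array median was taken off, the r of PTPRC was -0.47 with ALAS2, -0.09 with PPOX, 0.73 with CPOX and 0.64 with SLC25A38, while the 10 pairs of the 5 enzymes ran from 0.41 (UROS with UROD) to 0.83 (ALAS2 with ALAD). UROD with PPOX went from 0.78 to 0.48, and CPOX with SLC25A38 from -0.01 to 0.64, so that how members relate depends on this scaling.

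Some white cell markers were DE between the lines, as were 3.33% of all genes. Of 7 B cell genes measured, 3 were underexpressed in low RFI pigs, among them MS4A1 (CD20) and BLNK, with MS4A1 at a difference of -0.36 (limma adjusted P = 0.0011). CD14 (monocytes, 1 of 8 measured) and CXCR2 (neutrophils, 1 of 10) were underexpressed by 0.47 and 0.42 (adjusted P = 0.036 and 0.038), and LCK (T cells, 1 of 12) was overexpressed by 0.21 (adjusted P = 0.033). None of 8 NK cell and 7 platelet markers passed. Whether these shifts bear on the member values was not tested.

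The array itself also moved with these enzymes. The median signal of an array, whose log2 was subtracted, ran from 254 to 499 and had an r of -0.62 with UROD, -0.60 with PPOX, -0.54 with ALAD, -0.50 with ALAS2 and -0.03 with SLC25A38. The leading component of all 8344 genes held 35.1% of their standardised variance. Its r was 0.91 with UROD, 0.80 with ALAD, 0.74 with ALAS2, 0.79 with the erythroid marker level and -0.25 with CPOX. The part of these array-wide differences in the shared pattern was not tested.

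The genes most like each member over the 48 pigs were found by Pearson's r, as a description. For ALAS2 they included DLL4 (0.91), KCNG2 (0.91), EPB41 (0.91), a red cell skeleton protein, and TFF2 (0.91). For UROD they were PDZD3 (0.98), CDS1 (0.98) and PLEC (0.98), and 346 of 8336 other genes had an r above 0.9 with it, compared with 80 for ALAD, 9 for ALAS2 and 0 for the other 5 members. Whether the UROD spot reads UROD messenger RNA could not be settled. For ALAD they were UPK2 (0.94), a protein of the bladder lining, COX15 (0.94), needed for heme A synthesis, and C8ORF82 (0.94). PPOX was most like SLC16A3 (0.88), RNF123 (0.86) and JUN (0.85), and UROS most like SERINC2 (0.77), C14H10ORF58 (0.77) and RAB3IL1 (0.77).

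SLC25A37 had fewer companions, and its closest were EPOR (0.62), the erythropoietin receptor, KLF1 (0.61), the erythroid transcription factor, and BGN (0.61). CPOX was most like MYB (0.57), ILK (0.57) and LPL (0.55), and SLC25A38 most like TIMM17B (0.59), part of the mitochondrial protein import machinery, MOSPD3 (0.58) and TMEM59 (0.56). An r above 0.5 was reached by 26.3% of genes with UROD and 21.3% with ALAS2, but by 0.264% with SLC25A37, 0.228% with SLC25A38 and 0.120% with CPOX. The CPOX values are for the mean of spots that did not follow each other, at an r of -0.17.

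The wider iron and heme genes were read from 4 lists. Of 12 measured genes for porphyrin and heme transport and the control of the first step, none was DE between lines. The lowest P-values were those of PGRMC1, a heme-binding membrane protein (difference 0.20 ± 0.07 SE, limma adjusted P = 0.11, 19 of 24 low RFI pigs above the high RFI median), and PGRMC2 (0.09, adjusted P = 0.24). In the same list the r with the erythroid marker level was 0.86 for SLC25A39, a mitochondrial glutathione carrier, 0.83 for HEBP1 and 0.75 for ABCB8. The list's median line difference was 0.06, compared with 0.03 over all genes.

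Among 12 genes of iron-sulfur cluster assembly and iron sensing, none was DE between lines, with ACO1 (iron regulatory protein 1) at a difference of -0.05 (limma adjusted P = 0.79). Their median line difference was 0.01. BOLA3 had an r of 0.83 with the erythroid marker level and IREB2 (iron regulatory protein 2) of -0.63.

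Of 16 genes of iron uptake, storage and export, 1 was DE between lines. STEAP4, a metalloreductase, was 3.28 ± 0.56 in low RFI and 4.12 ± 0.56 in high RFI pigs (SD, n = 24 each), a difference of -0.84 ± 0.16 SE (limma adjusted P = 0.00058), and 23 of 24 low RFI pigs were below the high RFI median. Its r with the erythroid marker level was -0.07 and with ALAS2 -0.12. The median of the list was 0.03. Over the 16 genes of this list the r with ALAS2 ran from -0.52 (PCBP1, an iron chaperone) to 0.85 (HAMP, hepcidin), with FTH1 (ferritin heavy chain) at 0.82, TFRC, the transferrin receptor, at 0.02 and SLC11A2, an iron importer, at -0.49.

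Of 11 genes of heme breakdown, scavenging and export, none was DE between lines, with FLVCR2 at a difference of -0.14 (limma adjusted P = 0.16) and SLC48A1, a heme transporter, at -0.12 (adjusted P = 0.42). The median was -0.07. BLVRB, a biliverdin reductase abundant in red cells, had an r of 0.85 with ALAS2 and 0.88 with the erythroid marker level, and BLVRA an r of -0.61 with ALAS2. For diet, 0 of the 51 genes of the 4 lists passed the adjusted threshold in limma, beside 0% of all genes, and 3 of 51 had an unadjusted P-value under 0.05, beside 1.93% of all genes.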

How the data were processed

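Whole blood RNA of 48 pigs was hybridised to Agilent arrays of 60306 probes. Scanner output, with an intensity for every spot (Agilent Feature Extraction 10.7.3.1), was deposited together with the authors' table of log2 values for 37113 spots kept after quality filtration, worked up in R 3.0.2. On 47 arrays the deposited log2 value equalled the log2 of the median spot intensity minus the array median within 1e-06, with no background subtracted. The column of high RFI HF replicate 1 was rebuilt in this way.

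A gene was the mean of the retained spots with its name. Line, diet and interaction were fitted with limma 3.58.1 in R 4.3.3, with BH adjustment over 8344 genes or 37113 spots, and the fit was tested on simulated data. Correlations used 100000 two-sided permutations, adjusted over 28 pairs or, for the erythroid marker level, over the 8324 genes that are no marker. The erythroid marker level is the mean z of 20 measured genes. Correlations and figures were made in Python 3.11.15 (scipy 1.17.1, numpy 2.4.6, matplotlib 3.10.9, pandas 2.3.3).

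The members and gene lists were chosen with earlier results of these data known. Named were all members, and per list up to 6 genes whose line or diet effect passed 0.05 after adjustment, or else the 2 with the lowest P-value for line, and the 5 genes most like ALAS2 and the 3 most like each other member. Some items of these lists are not reported here. The genes named for their r with the erythroid marker level or ALAS2 were picked after their values were seen. Alternatives covered signal, scaling, probe filter, blocks for slide, scan day and replicate number, prior, probe summary, the column as deposited and left-out pigs. Reading identical oligos once and leaving out the pig with the highest SLC25A37 were added after the data were seen.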

Additional observations from a re-analysis of the deposited data

How the results depend on the processing

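No member passed the adjusted threshold for line, diet, the interaction or either effect within a group under any of the 15 alternatives, and the lowest adjusted P-value of a member in them was 0.32. The labels state no shared origin for pigs of the same replicate number, and 42 of 72 such pairs, not all, had an r over 0.1, so that the numbers were not used to pair pigs. The data hint at something shared, since the median r was 0.24 for the same number, 0.10 for the same slide with another number and -0.04 for other slides, and 23 of 48 pigs correlated best with their own number. With the replicate block 0 members passed, and the lowest adjusted P-value for line was 0.43. Pairs of members that passed numbered 12 in the main setting and 10 to 17 in the others, and 6 of 8 genes passed with the erythroid markers in each, adjusted over the 8.

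Differences changed sign in 18 cases, none past the threshold on either side, and the cause was not tested. For line, CPOX turned to -0.000538 and -0.00532 with background-corrected signal (array median and 75th percentile) and to -0.0623 with the column as deposited, and PPOX to 0.0552 with its brightest probe. With that column ALAD turned to -0.0122 for diet. Under HF the line difference of ALAD turned to 0.216 with that column and 0.0570 without high RFI HF replicate 1. That of SLC25A37 turned to -0.0140 and -0.0231 with the background-corrected signals, -0.0172 with normexp and quantile normalisation, -0.0630 with that column and -0.0373 without that pig. Brightest probes turned CPOX to 0.0688 for line under HF and to 0.0184 for the interaction, UROS to 0.0345 for line under LF and PPOX to -0.0332 for diet in low RFI pigs. Without low RFI LF replicate 8, PPOX turned to -0.0262 for line under LF and SLC25A37 from -0.18 to 0.0608 for diet in low RFI pigs. With brightest probes 4 of 7 CPOX pairs passed, at r from -0.44 to -0.39.

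The number of arrays limits the precision. The widest interval of a line difference was that of UROD, from -0.38 to 0.56 on the log2 scale.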
